A study of Homo sapiens with 4 samples.

Results

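Genes of the nuclear pore and of transport through it were followed in MV4;11, an established human acute myeloid leukaemia line driven by a rearranged KMT2A gene and mutant FLT3. The genes were matched by symbol: numbered nucleoporins (NUP), the importin alpha and beta families (KPNA, KPNB and IPO), exportins (XPO), and RAN, RANBP1, RANBP2, RCC1, TPR, AAAS, CSE1L and TNPO1. The set was drawn up with earlier results of these data known. The rule matched 49 of the 56638 gene symbols in the table, and 47 of them had enough reads to be among the 14018 genes tested. In 2 libraries the cells had been kept for 24 h with 1 µg/mL CU-T12-9, a synthetic compound that activates the heterodimer of TLR1 and TLR2, and in 2 libraries with vehicle. The labels give the vehicle as DMSO for the samples and as PBS in the treatment protocol, and the vehicle libraries are called DMSO here. All libraries came from the parental line, and no label says that the 2 libraries of a group were separate cultures.

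The nuclear pore complex is a channel through the nuclear envelope, built from rings of structural nucleoporins that carry flexible nucleoporins rich in phenylalanine-glycine (FG) repeats. Importins and exportins carry cargo through the FG mesh, and the small GTPase Ran sets the direction, since it is loaded with GTP in the nucleus and hydrolyses it in the cytoplasm. In leukaemia the pathway is known for NUP98 and NUP214, which are partners in oncogenic fusions, and for XPO1, the target of nuclear export inhibitors.

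The libraries held 23201117 and 23087102 counted reads for CU-T12-9, against 25867733 and 23892934 for DMSO. Levels are given in CPM, that is, reads per library after scaling for depth and TMM factor, and a single read was worth 0.0384 to 0.0442 CPM. All 8 listed markers of myeloid leukaemia had reads, and their sum was 2211 to 2312 CPM in the CU-T12-9 libraries and 2965 to 3051 CPM in the DMSO libraries. The myeloid markers went both ways: SPI1, HOXA9 and MEIS1 rose by 0.63, 0.43 and 0.46 on the log2 scale, while LYZ, which held most of the sum, fell by 0.65 and CD33, FLT3, CSF3R and MPO fell as well, MPO 27.5-fold. The 4 erythroid markers had no read in any library, and the 4 T cell markers summed to at most 0.0428 CPM under CU-T12-9 and at most 0.115 CPM under DMSO, with CD3D and CD2 at 0. Fibroblast markers summed to 1.503 to 1.67 CPM under CU-T12-9 and 0.0768 to 0.0835 CPM under DMSO, with at most 21 reads for a gene in a library. The sums of 4 B cell markers were 1.58 to 1.64 CPM under CU-T12-9 and 1.04 to 1.61 CPM under DMSO, and those of 4 epithelial markers, of which EPCAM and CDH1 were at 0, were 3.46 to 3.67 CPM under CU-T12-9 and 5.37 to 6.22 CPM under DMSO. The part of such cells in the results was not tested.

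Transcripts of the nuclear transport machinery took up a smaller share of the RNA after CU-T12-9. The 49 rows together held 0.624% and 0.602% of the counted reads in the CU-T12-9 libraries, against 0.886% and 0.872% in the DMSO libraries. Of the 47 tested members, 33 fell, 3 rose and 11 were not called (edgeR quasi-likelihood test, Benjamini-Hochberg adjusted p under 0.05). Over all genes tested, 33.2% were called lower and 32.0% higher. The median log2 fold change was -0.46 for the tested members and 0.00 for all genes tested. The falls were moderate: 11 members fell more than 2-fold, 7 fell between 1.5-fold and 2-fold, and 15 fell by less than 1.5-fold. Against a fold of 1.5 instead of no change, 16 members were lower and none of the 47 was higher, where 12.0% of all tested genes were called lower and 12.6% higher. No fitted rise reached that fold, the largest being 1.41-fold for KPNA5, which had no call. The 11 members without a call were NUP62, NUP214, KPNA1, KPNA3, KPNA4, KPNA5, KPNA6, IPO8, IPO13, XPO6 and XPO7, of which KPNA1 and KPNA5 had an unadjusted p under 0.05. In bulk RNA, fewer cells that express a gene and less of its RNA per cell cannot be told apart.

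**Figure D1:**
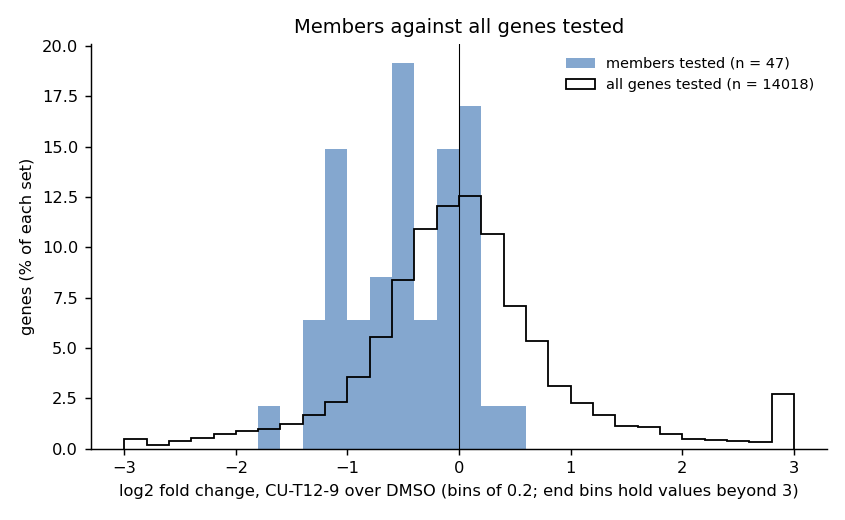
Share of genes (%) by log2 fold change of CU-T12-9 over DMSO, in bins of 0.2, for the 47 tested members (filled) and for all 14018 genes tested (line); the end bins hold values beyond 3. The members lie mostly left of 0, with a median of -0.46, and none reached the long upper tail of the other genes.

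All 33 members that fell had both CU-T12-9 libraries below both DMSO libraries, and the 3 that rose had both above. Such separation was not particular to called members: of the 11 not called, 3 had both above and 2 had both below. The share of all tested genes separated in this way was not counted. The largest of the member falls were in RANBP1, IPO4, CSE1L, NUP107, NUP210, NUP35, RCC1, KPNA2, IPO11, NUP205 and RAN, each over 2-fold. These 11 were spread over the rings, the membrane anchor, the receptors and the Ran cycle. The rises, in RANBP2, NUP153 and NUP98, were at most 1.19-fold. All of the rises, and the falls of NUP133, IPO7 and TNPO1, lost their call under at least 1 of the alternative fits or with 1 library left out, whereas the other 30 falls kept it under all that tested them.

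**Figure D2:**
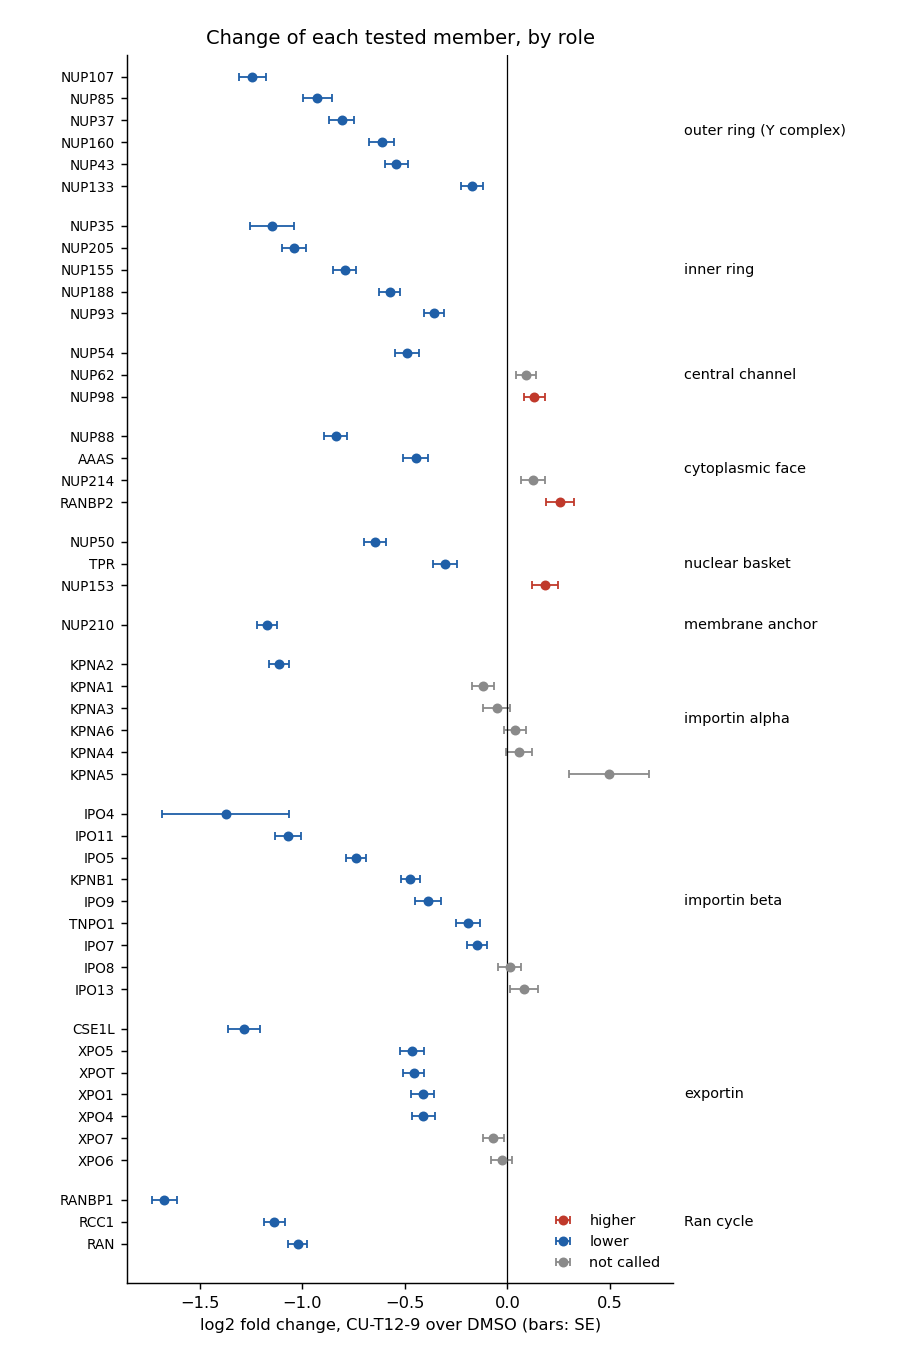
Log2 fold change (CU-T12-9 over DMSO) of each tested member with its standard error, grouped by role; colours give the call of the edgeR test. Outer and inner ring genes and the Ran cycle lie wholly left of 0, from -0.17 for NUP133 to -1.67 for RANBP1, while NUP98, RANBP2 and NUP153 lie right of it.

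Because many members fell together, the sequence before their annotated starts was read for short motifs known from promoters of growth and cell cycle genes. RefSeq's promoter table (GRCh38.p14) held 42 of the 49 members, 30 of them lower, 11 higher or not called, and NUP210L, which was not tested. The E-box CACGTG, a site of MYC and related factors and its own reverse complement, stood in the 250 bases before the start of 5 of the 30 lower members (NUP188, IPO7, RAN, IPO4 and NUP50) and 1 of the 11 others (KPNA3). It stood there in 9.07% of 9341 promoters of tested genes and 6.49% of all 27305 promoters. The CCAAT box, bound by NF-Y, was found on either strand in 14 of the 30 lower members and 4 of the 11 others, against 35.3% for tested genes and 33.0% for all promoters. The letters TTTGAA, as in the cell cycle homology region (CHR), were found on either strand in 6 of the 30 (NUP35, IPO11, NUP205, IPO7, NUP37 and KPNA2) and 2 of the 11 (NUP153 and NUP98), against 8.37% and 13.6%. Letters typical of E2F sites (TTTCCCGC, TTTGGCGC or TTTCGCGC) were found in 1 lower member, IPO11, and in none of the 11 others, against 3.82% and 2.38%. A match to such short letters is a description and not a binding site.

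Promoters of a few members are shown because the same letters stand before members that fell and members that did not. Each run gives the 150 bases before the RefSeq start on GRCh38.p14, read 5′ to 3′ along the gene, with the E-box, the CCAAT box and the CHR letters in capitals on whichever strand they read. These capitals do not overlap one another.
RAN (chr12:130871916-130872065, plus strand): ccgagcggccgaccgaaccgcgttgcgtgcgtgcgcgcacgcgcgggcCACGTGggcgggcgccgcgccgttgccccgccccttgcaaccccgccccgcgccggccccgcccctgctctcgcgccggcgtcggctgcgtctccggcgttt
NUP188 (chr9:128947549-128947698, plus strand): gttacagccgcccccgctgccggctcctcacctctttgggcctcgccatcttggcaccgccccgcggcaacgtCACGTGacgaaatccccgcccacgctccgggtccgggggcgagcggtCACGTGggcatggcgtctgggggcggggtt
KPNA3 (chr13:49792683-49792832, minus strand): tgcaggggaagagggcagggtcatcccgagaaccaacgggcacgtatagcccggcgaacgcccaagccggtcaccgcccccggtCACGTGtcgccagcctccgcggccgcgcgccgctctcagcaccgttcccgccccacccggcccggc
KPNA2 (chr17:68035585-68035734, plus strand): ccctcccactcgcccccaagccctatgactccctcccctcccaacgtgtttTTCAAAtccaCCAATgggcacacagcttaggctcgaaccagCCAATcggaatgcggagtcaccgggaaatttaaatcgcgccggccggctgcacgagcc
CSE1L (chr20:49046162-49046311, plus strand): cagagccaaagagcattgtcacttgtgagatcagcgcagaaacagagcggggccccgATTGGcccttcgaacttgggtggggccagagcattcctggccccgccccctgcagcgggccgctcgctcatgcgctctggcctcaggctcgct
NUP98 (chr11:3797547-3797696, minus strand): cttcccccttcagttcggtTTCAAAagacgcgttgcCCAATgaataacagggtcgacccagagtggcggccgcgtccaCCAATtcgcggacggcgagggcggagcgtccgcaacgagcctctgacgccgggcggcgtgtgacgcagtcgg

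RAN and NUP188, which fell, hold 1 and 2 E-boxes in this stretch, and KPNA3, which was not called, holds 1. KPNA2, which fell over 2-fold, and NUP98, which did not fall, each hold 2 CCAAT boxes and 1 TTTGAA match. CSE1L, with one of the largest falls, holds a CCAAT box and neither of the others in this window.

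The Ran cycle fell as a whole. All 3 members fell more than 2-fold, and their median log2 fold change was -1.14. Against a fold of 1.5 all 3 were lower, where 12.0% of all tested genes were. RANBP1, which helps GTP-loaded Ran off its carriers in the cytoplasm, had 90.3 and 81.6 CPM in the CU-T12-9 libraries, against 274 and 274 CPM in the DMSO libraries. It fell 3.19-fold (log2 fold change -1.67, SE 0.06, edgeR adjusted p = 2.72e-08), the largest change of any member, and ranked 539 among the 14018 genes ordered from the largest fall. RCC1, the chromatin-bound exchange factor that loads Ran with GTP, had 91.9 and 93.4 CPM under CU-T12-9, against 205 and 203 CPM under DMSO (log2 fold change -1.14, SE 0.05, adjusted p = 9.30e-08). RAN itself had 312 and 315 CPM under CU-T12-9, against 641 and 635 CPM under DMSO (log2 fold change -1.02, SE 0.05, adjusted p = 1.24e-07). The libraries of the groups did not overlap in these 3 genes, as in all called members. RANGAP1, the cytoplasmic GTPase activator that completes the cycle and is not a member, fell alongside, with 113 and 119 CPM under CU-T12-9 and 253 and 248 CPM under DMSO. RCC1 shares 242 exon bases with the RNA gene SNHG3, which fell by 0.71 on the log2 scale, and RANBP1 shares 393 exon bases with TRMT2A on the opposite strand (GENCODE 29), so their counts are uncertain to that extent.

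**Figure D3:**
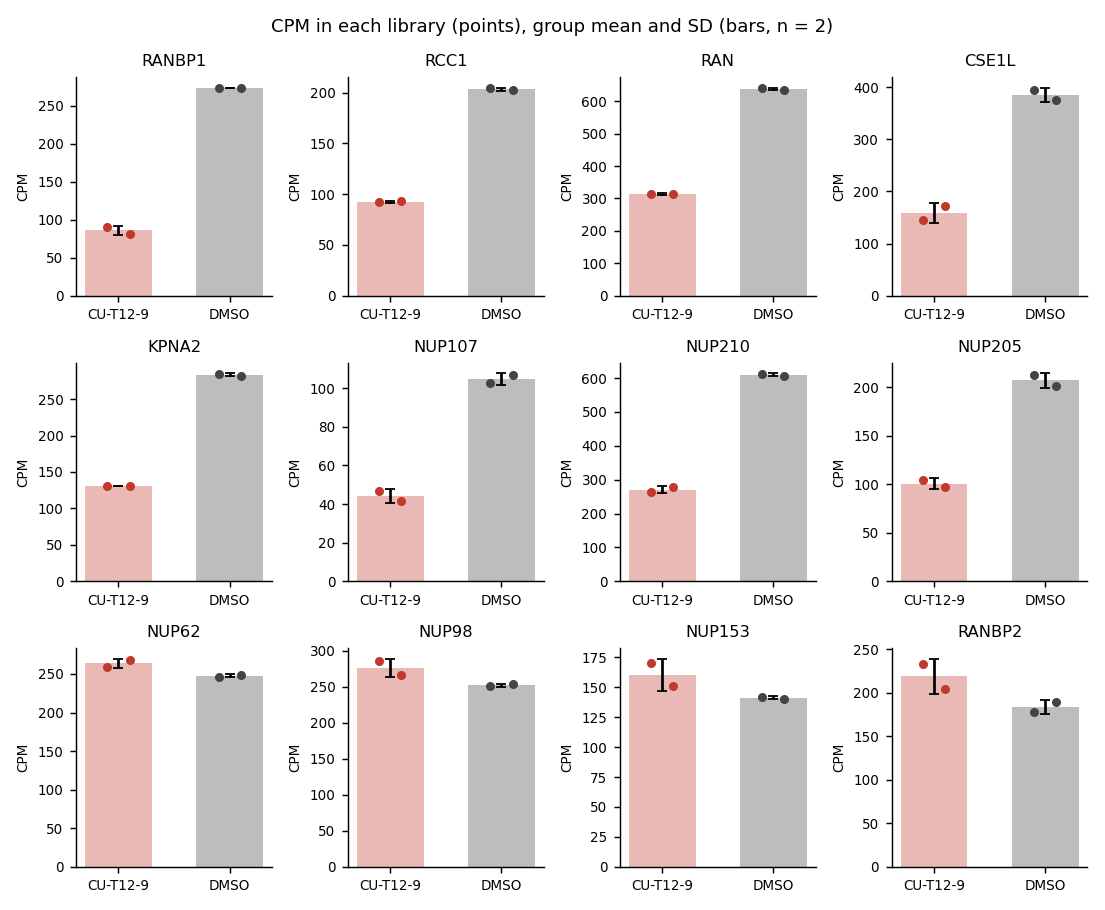
CPM in each library (points), with the group mean and SD (bars, n = 2), for 12 members. In the upper 8 panels the CU-T12-9 mean lies at less than 0.5 of the DMSO mean. For RANBP1 the libraries had 90.3 and 81.6 CPM against 274 and 274 CPM. In the bottom row, the CU-T12-9 means of NUP62, NUP98, NUP153 and RANBP2 lie at or slightly above the DMSO means.

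Among the importin alpha adaptors, which recognise the classical nuclear localisation signal and pass the cargo to importin beta, KPNA2 was the single member called lower. It had 131 and 131 CPM in the CU-T12-9 libraries, against 285 and 282 CPM in the DMSO libraries, a fall of 2.17-fold (log2 fold change -1.12, SE 0.05, edgeR adjusted p = 8.67e-08). KPNA1, KPNA3, KPNA4 and KPNA6 were not called, with log2 fold changes of -0.12, -0.05, 0.06 and 0.04. Their 95% intervals together ran from -0.24 to 0.20, so a fall of the size of KPNA2's lay outside all 4 intervals. The interval of KPNA1 ran from -0.237 to -0.000792 (edgeR adjusted p = 0.0715). With library totals as the scale KPNA1 was called lower (edgeR adjusted p = 0.0414). KPNA5 had only 3.46 and 4.33 CPM under CU-T12-9, against 2.53 and 3.01 CPM under DMSO, and just missed the threshold (log2 fold change 0.49, SE 0.20, adjusted p = 0.0502). KPNA5 passed the threshold under 4 alternatives on all libraries, with adjusted p from 0.0345 to 0.0470, and missed it with library totals (0.0557), limma-voom (0.0557) and DESeq2 (0.174). KPNA7, known from oocytes and early embryos, had no read under CU-T12-9 and 1 read in each DMSO library, below the floor of 3 reads.

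The make-up of the importin alpha pool therefore differed between the groups. Per kilobase of exon, KPNA2 made up 45.7% and 44.5% of the summed importin alpha level in the CU-T12-9 libraries, against 63.5% and 63.9% in the DMSO libraries. KPNA3 made up 13.6% and 14.7% under CU-T12-9 and 9.53% and 9.62% under DMSO, and KPNA4 13.4% and 14.4% under CU-T12-9 and 8.90% and 8.58% under DMSO. KPNA1 made up 13.3% and 13.4% under CU-T12-9 and 9.52% and 9.41% under DMSO. For KPNA6 the shares were 13.6% and 12.6% under CU-T12-9 and 8.35% and 8.28% under DMSO. Shares of the same pool are tied, so a lower KPNA2 share raises the others. The levels of KPNA1, KPNA3, KPNA4 and KPNA6 were not called, and their higher shares are not rises of their own. The summed level per kilobase was 91.0 and 93.9 CPM per kb under CU-T12-9 and 143 and 141 CPM per kb under DMSO, so the pool was smaller and less dominated by KPNA2. Exon lengths are those of GENCODE 29 on GRCh38, which may differ from the annotation behind the counts. They count every base that is exon in any transcript, and the shares depend on them. With 2 libraries per group an exact permutation test of a share cannot go below p = 0.333.

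**Figure D4:**
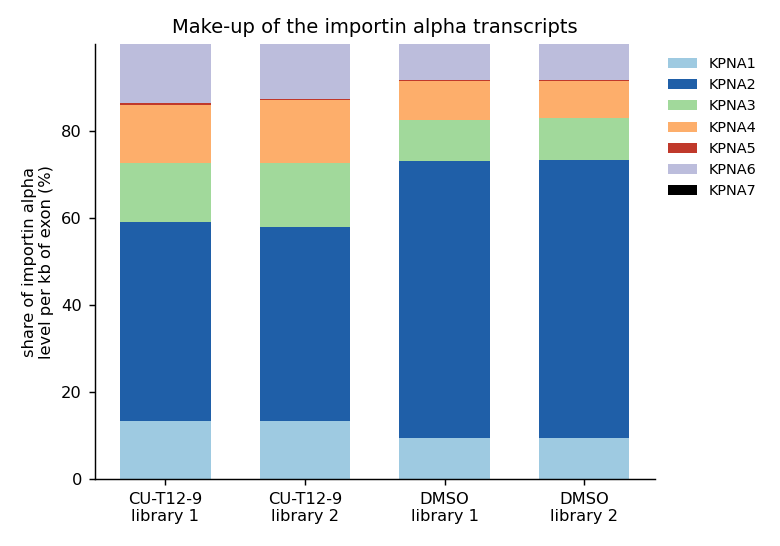
Share (%) of each importin alpha gene in the summed level per kilobase of exon, 1 bar per library. The KPNA2 segment is 45.7% and 44.5% in the CU-T12-9 libraries and 63.5% and 63.9% in the DMSO libraries; KPNA5 and KPNA7 are barely visible.

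CSE1L, the exportin that returns importin alpha to the cytoplasm, fell most among the exportins, with 144 and 172 CPM in the CU-T12-9 libraries and 395 and 376 CPM in the DMSO libraries (2.44-fold, log2 fold change -1.29, SE 0.08, edgeR adjusted p = 7.47e-07). Both CU-T12-9 libraries lay well below both DMSO libraries. Per kilobase of exon, CSE1L made up 23.1% and 26.8% of the summed exportin level under CU-T12-9, against 39.96% and 39.4% under DMSO. XPO5, XPOT, XPO1 and XPO4 fell by smaller amounts. XPO5, the exporter of microRNA precursors, had 118 and 109 CPM under CU-T12-9, against 161 and 152 CPM under DMSO (log2 fold change -0.46, SE 0.06, adjusted p = 0.000103). XPOT, which exports tRNA, fell by 0.46, XPO1, the main carrier of proteins with a leucine-rich export signal, by 0.41, and XPO4 by 0.41 on the log2 scale. XPO6, which exports actin with profilin, and XPO7 were not called, with log2 fold changes of -0.03 and -0.07 and intervals that together ran from -0.18 to 0.09.

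In the importin beta family 7 of 9 members fell, and the median log2 fold change was -0.39. Against a fold of 1.5, 3 of the 9 were lower. Of all tested genes, 33.2% were called lower, and 12.0% against a fold of 1.5. KPNB1, the carrier that works with importin alpha, had 399 and 397 CPM under CU-T12-9, against 553 and 551 CPM under DMSO (log2 fold change -0.47, SE 0.05, edgeR adjusted p = 1.89e-05). The ratio of RAN to KPNB1 reads was 0.784 and 0.794 in the CU-T12-9 libraries, against 1.16 and 1.15 in the DMSO libraries. This pair was not set in advance, and its ratio restates the larger fall of RAN. IPO11 had 24.7 and 25.9 CPM under CU-T12-9, against 53.7 and 52.7 CPM under DMSO (log2 fold change -1.07, SE 0.07, adjusted p = 7.92e-07). IPO4, which imports histones and ribosomal proteins, had the largest fitted fall of the family at -1.37 (SE 0.31, adjusted p = 0.00359), but on few reads, 13 and 23 in the CU-T12-9 libraries and 56 and 46 in the DMSO libraries. In GENCODE 29, 69.3% of the IPO4 exon bases also belong to AL136295.4 on the same strand and 17.0% of those of IPO11 to LRRC70, neither of which was among the genes tested, so the levels of IPO4 and IPO11 are uncertain. IPO11 also shares 428 exon bases on the same strand with KIF2A, a tested gene that fell (log2 fold change -0.54). IPO5, a carrier of histones and ribosomal proteins as well, fell by 0.74, IPO9 by 0.39, TNPO1 (transportin, the carrier of many RNA-binding proteins) by 0.19 and IPO7 by 0.15 on the log2 scale. IPO8 and IPO13 were not called, with log2 fold changes of 0.01 and 0.08 and intervals that together ran from -0.12 to 0.24. The call for IPO7 was lost with DESeq2 (adjusted p = 0.103), with DESeq2's size factors in edgeR (0.0624) and without CU-T12-9 replicate 1 (0.0653), DMSO replicate 1 (0.213) or DMSO replicate 2 (0.133), and that for TNPO1 with DESeq2 (0.0520) and without DMSO replicate 1 (0.175).

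Within the pore, all 11 genes listed under the outer and inner rings fell, where 33.2% of all tested genes were called lower. Against a fold of 1.5, 3 outer ring and 3 inner ring genes were lower, where 12.0% of all tested genes were. The 6 outer ring genes encode part of the Y-shaped complex that coats both faces of the pore and also sits on kinetochores in mitosis, and their median log2 fold change was -0.71. NUP107 had 46.8 and 41.7 CPM in the CU-T12-9 libraries, against 103 and 107 CPM in the DMSO libraries (log2 fold change -1.24, SE 0.07, edgeR adjusted p = 3.68e-07). NUP85 had 47.7 and 41.9 CPM under CU-T12-9, against 82.8 and 87.4 CPM under DMSO (log2 fold change -0.93, SE 0.07, adjusted p = 4.26e-06). NUP37, NUP160 and NUP43 fell by 0.81, 0.61 and 0.54 on the log2 scale. NUP133, which binds NUP107 directly in the stem of the Y, fell least, by 0.17, with 93.9 and 91.0 CPM under CU-T12-9 and 103 and 106 CPM under DMSO. The ratio of NUP107 to NUP133 reads was 0.498 and 0.459 in the CU-T12-9 libraries, against 1.00 and 1.01 in the DMSO libraries. This pair was chosen after its values were seen. The NUP133 call was lost with DESeq2 (adjusted p = 0.0998) and without DMSO replicate 1 (0.0917) or DMSO replicate 2 (0.190).

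The inner ring lines the channel and anchors it to the membrane, and the median log2 fold change of its 5 members was -0.79. NUP35, a small subunit that touches the membrane, had 8.42 and 10.1 CPM under CU-T12-9, against 20.5 and 20.4 CPM under DMSO (log2 fold change -1.15, SE 0.11, edgeR adjusted p = 1.34e-05). NUP205, a large scaffold subunit, had 105 and 96.7 CPM under CU-T12-9, against 212 and 202 CPM under DMSO (log2 fold change -1.04, SE 0.06, adjusted p = 4.54e-07). Its paralogue NUP188 fell by 0.57, NUP155 by 0.79 and NUP93, the hub that holds the ring together, by 0.36 on the log2 scale. For NUP205 and NUP188 that was 2.06-fold and 1.49-fold lower. In each inner ring gene both CU-T12-9 libraries lay below both DMSO libraries, as in all members that fell.

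NUP210, a membrane-spanning nucleoporin, was among the members with the highest level per kilobase under DMSO. It had 264 and 277 CPM in the CU-T12-9 libraries, against 613 and 607 CPM in the DMSO libraries (2.25-fold, log2 fold change -1.17, SE 0.05, edgeR adjusted p = 7.80e-08). Its testis-expressed paralogue NUP210L had 1 and 2 reads under CU-T12-9 and 4 and 1 reads under DMSO, too few to be tested. The level of NUP210 was 33.1 CPM per kb under CU-T12-9 and 74.6 CPM per kb under DMSO, which ranked it 7 of 49 under CU-T12-9 and 4 of 49 under DMSO.

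In the central channel, NUP54 fell while NUP62 and NUP98 did not. NUP54, an FG nucleoporin that assembles with NUP62, had 47.5 and 49.5 CPM under CU-T12-9, against 67.8 and 68.3 CPM under DMSO (log2 fold change -0.49, SE 0.06, edgeR adjusted p = 6.68e-05). NUP62 had 259 and 268 CPM under CU-T12-9, against 246 and 249 CPM under DMSO, and was not called (log2 fold change 0.09, SE 0.05, adjusted p = 0.131). NUP98, an FG nucleoporin whose precursor also yields the Y complex subunit NUP96, had 285 and 267 CPM under CU-T12-9, against 250 and 253 CPM under DMSO (log2 fold change 0.13, SE 0.05, adjusted p = 0.0489). The NUP98 rise was lost with library totals as the scale (adjusted p = 0.0856), no filter (0.0917), DESeq2 (0.0775), a replicate block (0.0595) and without DMSO replicate 1 (0.342) or DMSO replicate 2 (0.274). The NUP62 row has neighbours that moved strongly: its exons share 336 bases with IL4I1 on the same strand and 626 bases, 10.4% of the NUP62 exon bases, with ATF5 on the opposite strand (GENCODE 29). IL4I1, a secreted amino acid oxidase, had 412 and 500 CPM under CU-T12-9 and 6.60 and 7.02 CPM under DMSO, and the transcription factor gene ATF5 had 180 and 199 CPM under CU-T12-9 and 50.9 and 50.5 CPM under DMSO. No source used here says how reads in the shared exons were assigned, and their part in the NUP62 level was not tested.

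Members on the cytoplasmic face went both ways. NUP88 had 72.0 and 72.1 CPM under CU-T12-9, against 132 and 125 CPM under DMSO (log2 fold change -0.84, SE 0.05, edgeR adjusted p = 1.29e-06). AAAS, whose loss causes triple A syndrome, had 35.3 and 36.2 CPM under CU-T12-9, against 49.1 and 48.3 CPM under DMSO (log2 fold change -0.45, SE 0.06, adjusted p = 0.000182). NUP214, the FG partner of NUP88, was not called, with 104 and 99.97 CPM under CU-T12-9 and 89.6 and 97.6 CPM under DMSO (log2 fold change 0.13, SE 0.06, adjusted p = 0.0956). NUP88 shares 9.82% of its exon bases with RPAIN, which was not called, and 8.84% with RABEP1, which fell by 0.34 on the log2 scale, both on the opposite strand (GENCODE 29), so its counts are uncertain to that extent. For NUP88 both CU-T12-9 libraries lay below both DMSO libraries, and for NUP214 both lay above. RANBP2, the giant protein of the cytoplasmic filaments that holds SUMO-modified RANGAP1, had 233 and 205 CPM under CU-T12-9, against 178 and 190 CPM under DMSO (log2 fold change 0.26, SE 0.07, adjusted p = 0.00940), a rise that was lost without DMSO replicate 1 (0.0853). Near-identical RGPD copies had at most 3 reads together in a library, so few reads of RANBP2 were assigned to them. Whether reads that match both were left out of the RANBP2 row is not known.

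In the nuclear basket 2 members fell and 1 rose, where 33.2% of all tested genes were called lower and 32.0% higher. NUP50, a mobile cofactor of importin alpha release, had 88.1 and 83.5 CPM under CU-T12-9, against 135 and 133 CPM under DMSO (log2 fold change -0.64, SE 0.05, edgeR adjusted p = 6.44e-06). TPR, which forms the basket filaments, had 267 and 244 CPM under CU-T12-9, against 311 and 320 CPM under DMSO (log2 fold change -0.30, SE 0.06, adjusted p = 0.00119). NUP153, the FG nucleoporin that anchors TPR, had 170 and 151 CPM under CU-T12-9, against 142 and 140 CPM under DMSO (log2 fold change 0.18, SE 0.06, adjusted p = 0.0285). The NUP153 rise was lost with library totals as the scale (0.0551) and without DMSO replicate 1 (0.120) or DMSO replicate 2 (0.170). In all of RANBP2, NUP153 and NUP98, the first CU-T12-9 library was the higher of the pair.

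Ordered by level per kilobase of exon, RAN stood highest of the members in both groups, at 65.03 CPM per kb under CU-T12-9 and 132 CPM per kb under DMSO. Behind it under DMSO came CSE1L at 101, KPNA2 at 90.3 and NUP210 at 74.6 CPM per kb, all genes that fell more than 2-fold. Under CU-T12-9 the next were KPNB1 at 51.8, IPO7 at 48.9 and NUP62 at 43.8 CPM per kb. KPNA2 at 41.7 and CSE1L at 41.6 CPM per kb followed, closer together than the SD of CSE1L (5.07). RANBP1 stood at rank 17 of 49 under CU-T12-9, against rank 6 under DMSO. The order of the levels therefore differed between the groups. Exon length here counts every base that is exon in any annotated transcript of a gene. The ranks between genes thus depend on the annotation as well as on the reads.

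Pore and transport genes outside the symbol rule were listed by role in 6 lists. Of their 50 calls, 12 were lost under at least 1 alternative fit or with 1 library left out, 2 of them among the other pore subunits (GLE1 and SEC13). The list counts stand beside 33.2% of all tested genes called lower and 32.0% called higher. Of 10 other pore subunits, 7 fell and none rose, and the median log2 fold change was -0.27. NDC1, a membrane-spanning nucleoporin needed for pore assembly, had 39.9 and 41.7 CPM under CU-T12-9, against 131 and 123 CPM under DMSO (log2 fold change -1.64, SE 0.06, edgeR adjusted p = 3.55e-08). SEH1L of the Y complex fell by 0.87. POM121, another membrane-spanning nucleoporin, named after its values were seen, was not called, with 92.7 and 96.5 CPM under CU-T12-9 and 89.5 and 94.9 CPM under DMSO, a row that can share reads with the near-identical POM121C. Of 10 other receptors and Ran factors 7 fell and none rose, led by RANGAP1 (-1.11) and NUTF2 (-0.82), the import carrier of Ran itself.

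Of 19 genes of mRNA export, 12 fell and 1 rose, and the median log2 fold change was -0.41. For this list and those that follow, the shares of all tested genes were 33.2% lower and 32.0% higher. DDX39A, a helicase, and ALYREF, an export adaptor, led the falls with -1.18 and -1.13. MCM3AP, which encodes the scaffold that brings mRNA to the pore, was the exception, with 231 and 208 CPM under CU-T12-9 and 156 and 159 CPM under DMSO (log2 fold change 0.48, SE 0.06, edgeR adjusted p = 0.000108). In small RNA and snRNA export 4 of 6 genes fell and none rose, led by the microprocessor subunit DGCR8 (-0.65) and the cap-binding subunit NCBP1 (-0.40). Of 9 genes of the SUMO cycle at the pore 6 fell, led by SAE1 (-0.95) and UBA2 (-0.84), the subunits of the SUMO-activating enzyme, and PIAS1 rose (0.26), a call lost without DMSO replicate 1 (edgeR adjusted p = 0.0750).

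Of 14 tested genes of the nuclear lamina and envelope, to which the pores are fixed, 7 fell and 5 rose, where 33.2% of all tested genes were called lower and 32.0% higher. Against a fold of 1.5, 4 were lower and 2 higher, and the rises of EMD, TOR1AIP1 and SUN2 were 1.17-fold, 1.14-fold and 1.33-fold. LMNB1 had 97.8 and 102 CPM under CU-T12-9, against 349 and 362 CPM under DMSO (log2 fold change -1.83, SE 0.05, edgeR adjusted p = 7.78e-09). LMNA had 662 and 783 CPM under CU-T12-9, against 226 and 245 CPM under DMSO (log2 fold change 1.62, SE 0.08, adjusted p = 2.18e-07). The ratio of LMNA to LMNB1 reads was 6.77 and 7.69 in the CU-T12-9 libraries, against 0.648 and 0.677 in the DMSO libraries. Both genes were named for their large changes in opposite directions, so the ratio restates these changes. TMPO, which encodes lamina-associated polypeptides, fell by 1.26, and SYNE1, a linker of the nucleus to the cytoskeleton, rose by 1.96 on the log2 scale, with 12.3 and 11.3 CPM under CU-T12-9 and 3.19 and 2.88 CPM under DMSO.

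**Figure D5:**
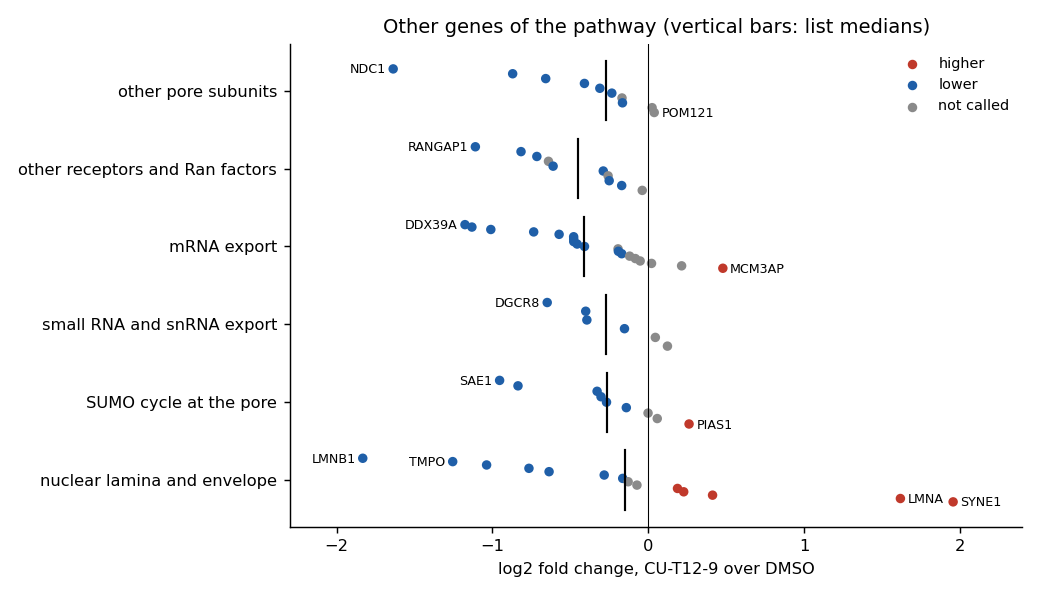
Log2 fold change (CU-T12-9 over DMSO) of pore, transport and envelope genes outside the symbol rule, 1 point per tested gene; colours give the call of the edgeR test and vertical bars the list medians. Transport lists lie mostly left of 0 with few rises, such as MCM3AP at 0.48, while the envelope list spans LMNB1 at -1.83 to SYNE1 at 1.96.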

How the data were processed

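Raw read counts by gene symbol, without coordinates, were deposited by the authors in 1 table for the 4 libraries. Per the submitters' processing notes, FastQC 0.11.7, TopHat2 and featureCounts 1.5.2 were used with GRCh37. No source used here gives the annotation, the strand setting or the handling of reads shared between genes. In R 4.3.3 the counts were analysed with the quasi-likelihood test of edgeR 4.0.16 (default expression filter, TMM scaling, group as the only term, Benjamini-Hochberg adjustment over 14018 genes), after a check on simulated data. The standard error is the size of the log2 fold change over the root of its F statistic, and 95% intervals use its t quantile. Alternatives used limma 3.58.1 and DESeq2 1.42.0. With 2 libraries per group and no statement that they were separate cultures, the p-values reflect only how far these libraries varied, which may be technical. The coefficient of variation that edgeR fitted between libraries of a group was 5.00%, which may likewise be technical. The CU-T12-9 libraries differed from each other more than the DMSO libraries did (chi-square per degree of freedom 6.99 against 2.42). Library totals ranged from 23087102 to 25867733 reads. The members, lists, naming rule and tests were chosen with earlier results of these data known. Values in every library are given for the 2 largest changes of each role (all members in roles of 3 or fewer), for called members that went against most of their role and for the 3 most read members. Exon lengths and overlaps are from GENCODE 29 (GRCh38) and promoters from RefSeq (GRCh38.p14). Motifs were searched in the 250 bases before each start.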

Additional observations from a re-analysis of the deposited data

How the results depend on the processing

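The count of 33 lower members stayed between 30 and 35 under every alternative fit and left-out library, and was 16 against a fold of 1.5. The count of 3 higher members was 1 with library totals and 0 against a fold of 1.5, and ran from 0 to 8 when 1 library was left out: 0 without DMSO replicate 1 (edgeR; 1 at an unadjusted p under 0.05), 1 without DMSO replicate 2, 4 without CU-T12-9 replicate 2 and 8 without CU-T12-9 replicate 1. The members' median log2 fold change of -0.46 was -0.44 with DESeq2's size factors and with DESeq2, -0.47 with library totals, -0.47 with no filter, -0.45 with a filter of 1 CPM, and -0.49 to -0.44 with 1 library left out. No called member changed direction. In the 6 lists outside the symbol rule, 38 of 50 calls were kept under every alternative that tested them and none reversed. The 12 lost included GLE1, SEC13, RANBP3, THOC2, CHTOP, NCBP2, EMD, SUN1 and TOR1AIP1. Small changes without a call in the main fit changed sign. IPO8 was -0.00433 with library totals, -0.00114 with no filter and -0.0325 to 0.0569 with 1 library left out. With 1 library left out, KPNA3 ran from -0.134 to 0.0564, KPNA4 from -0.0217 to 0.159 and XPO6 from -0.046 to 0.0113. Some members without a call in the main fit, such as KPNA3, KPNA4, NUP62 and IPO13, were called in such a fit. NUP62 and IPO13 were 0.145 and 0.164 without CU-T12-9 replicate 1. Without CU-T12-9 replicate 2 they were 0.0644 and 0.0261. The replicate block left 33 members lower and 3 higher. It ended the call of NUP98 and made that of KPNA5. Deviations of same-numbered libraries correlated at 0.00795 across genes, and no label says that the numbers pair the libraries. The cause of these changes was not tested. The shift of all genes was at most 0.0154 with another scaling and at most 0.0318 with 1 library left out (median log2 difference). With 1 library left out, a lone library is assumed to vary like the other group. Genes at a few reads per library, such as IPO4, are limited by depth.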
